A study of Mus musculus with 4 samples.

Results

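The 42 genes described here form the glycolysis and hypoxia response module: glucose transporters, glycolytic enzymes, the lactate and pyruvate branch points, and the oxygen-sensing system with some of its classical targets. They were chosen by function, with earlier results of these data known. A gene counted as measured where a row of the array carried its symbol and no other. That held for 38 of the 42 (90.5%), out of 19938 genes measured on the arrays. Gapdh was named only on 25 rows that also carried other symbols, and no row named Eno1, Gpi1 or Pfkfb1, so these 4 were not analysed here.

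The data are 4 Affymetrix mouse gene arrays, 2 for KrasD12 and 2 for WT, each with total RNA of primary lung fibroblasts grown out of collagenase-digested lungs of mice 3-4 weeks old. The cells of all 4 samples were kept in medium with 20% serum and received no treatment. The KrasD12 pair (A, B) derives from cells labelled with the KrasD12 genotype, and the WT pair (A, B) from cells labelled WT; the growth protocol also calls the cultures myofibroblasts. The titles carry a single number for each genotype and do not say what it marks. A difference that goes with that number and one between the genotypes cannot be told apart. The labels leave unsaid if the letters mark separate cultures. The p-values therefore set a difference only against the spread between these samples, in part pooled over all genes. That spread may be technical.

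Glycolysis splits glucose into pyruvate. Cells then either reduce pyruvate to lactate, which leaves through monocarboxylate carriers, or pass it to the mitochondrial pyruvate dehydrogenase complex, which pyruvate dehydrogenase kinases switch off. When oxygen is short, prolyl hydroxylases no longer mark the HIF alpha subunits for the VHL ubiquitin ligase, and the stabilised factor raises transcription of most genes of the pathway.

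The deposited levels are on the log2 scale, and every difference below is KrasD12 minus WT on that scale with limma's moderated standard error (n = 2 per group). Column medians were 6.24 and 6.26 in KrasD12 A and B, against 5.90 and 5.91 in WT A and B, and the median difference of all genes was 0.26. That shift depended on the level: it was 0.39 for genes with means of 5 to 6 and -0.15 for means of 11 to 12. A gene is therefore said to have risen or fallen only where limma called it in the same direction (adjusted p below 0.05) on both scalings, the deposited values and those after quantile normalization, which gives the 4 columns the same distribution and leaves a median difference of 0.00. Levels under 5.15, the 95th percentile of the means of 1205 olfactory and vomeronasal receptor rows, are called dim.

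More members fell than rose in KrasD12 fibroblasts. Of the 38 measured members, 11 fell (28.9%) and 4 rose (10.5%), against 11.5% and 22.4% of all genes. The falls were those of Pfkfb3, Ldha, Pdha1, Tpi1, Hk2, Pfkp, Pgk1, Pdhb, Pdk1, Hif1a and Slc2a1, and the rises those of Slc2a3, Pdk2, Ddit4 and Dlat. Falls are commoner among bright genes in general: of the 9 members with a mean above 10, 5 fell and 0 rose, where 26.5% and 21.6% of all such genes did, and of the 28 between the dim level and 10, 6 fell and 4 rose, where 14.3% and 24.7% of such genes did. The median difference of the members was -0.03 as deposited and -0.20 after quantile normalization, beside 0.26 and 0.00 for all genes.

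On the deposited values alone limma called 10 members higher and 12 lower (22 of 38), against 50.1% and 11.9% of all genes (62.1% in either direction), and after quantile normalization 4 higher and 17 lower, against 22.5% and 24.4%. Both KrasD12 values lay above both WT values for 11 members and below them for 18, where 64.3% and 18.7% of all genes did so. The counts rest on all 4 arrays. Leaving out 1 array leaves 1 sample in a group, and limma then called fewer of all genes as well as fewer members. With each array left out in turn, the deposited difference ranged from -1.34 to -1.17 for Pfkfb3 and from 1.22 to 1.29 for Slc2a3. For Pfkp it ranged from -0.73 to -0.39. Without WT A or WT B limma called 0 of 19938 genes on the deposited values, with 9846 and 10022 genes at an unadjusted p under 0.05. The 15 members called on both scalings have groups that do not overlap. Leaving out 1 array therefore could not turn the sign of their deposited differences, and that the sign stayed is no further result.

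**Figure D1:**
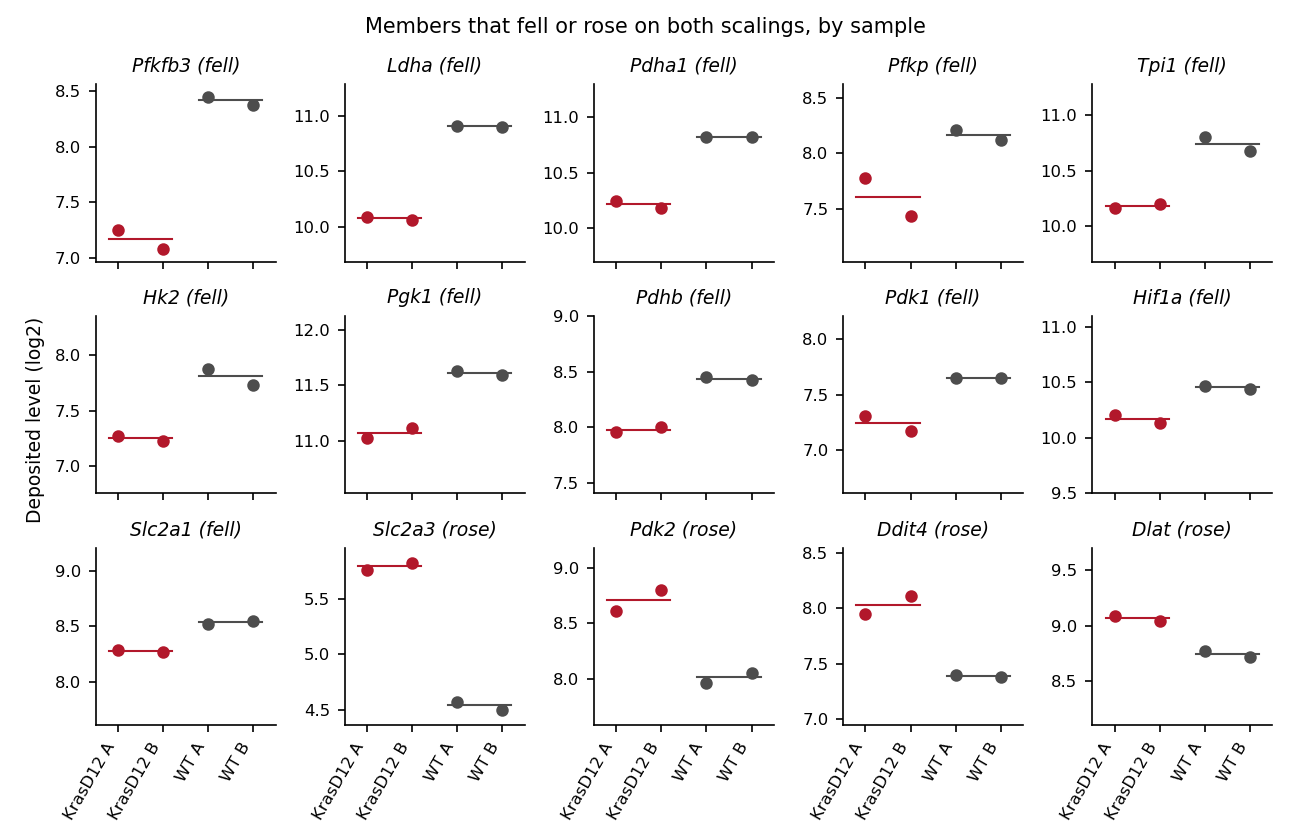
Deposited log2 level in each sample of the 15 members that fell or rose on both scalings; points are samples (KrasD12 A and B in red, WT A and B in grey), lines are group means, and every panel spans the same range of log2 units. In no panel do the groups overlap, and Pfkfb3 and Slc2a3 show the widest gaps.

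Promoter sequence is shown for the 3 members with the largest falls and the 3 with the largest rises that had an entry in the RefSeq promoter table (GRCm38.p6). Slc2a3 and Epas1 had no entry. Each line gives the 250 bases before an annotated start site, read 5′ to 3′ along the gene, and capitals mark ACGTG or GCGTG on either strand, the core letters of the site to which HIF binds.
Pfkfb3 (chr2:11502091-11502340, minus strand): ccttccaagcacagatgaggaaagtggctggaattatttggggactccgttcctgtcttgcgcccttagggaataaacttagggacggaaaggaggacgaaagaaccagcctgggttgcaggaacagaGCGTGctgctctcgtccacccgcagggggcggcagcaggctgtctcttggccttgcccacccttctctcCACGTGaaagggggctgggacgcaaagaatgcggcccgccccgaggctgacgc
Ldha (chr7:46845554-46845803, plus strand): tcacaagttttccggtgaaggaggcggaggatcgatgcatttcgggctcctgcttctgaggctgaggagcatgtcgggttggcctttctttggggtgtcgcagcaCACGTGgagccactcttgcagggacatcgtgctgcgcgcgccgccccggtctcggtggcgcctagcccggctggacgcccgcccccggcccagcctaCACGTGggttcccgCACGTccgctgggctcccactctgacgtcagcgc
Pdha1 (chrX:160138431-160138680, minus strand): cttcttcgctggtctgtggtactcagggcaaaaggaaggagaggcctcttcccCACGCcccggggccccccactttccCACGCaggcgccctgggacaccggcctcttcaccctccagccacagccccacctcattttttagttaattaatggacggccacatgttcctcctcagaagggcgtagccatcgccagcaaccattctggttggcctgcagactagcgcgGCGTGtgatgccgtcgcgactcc
Pdk2 (chr11:95041372-95041621, minus strand): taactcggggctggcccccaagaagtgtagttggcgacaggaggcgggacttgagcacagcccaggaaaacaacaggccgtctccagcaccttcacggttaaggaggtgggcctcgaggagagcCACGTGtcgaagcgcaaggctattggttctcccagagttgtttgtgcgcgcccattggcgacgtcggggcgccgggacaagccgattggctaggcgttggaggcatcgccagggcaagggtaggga
Ddit4 (chr10:59951771-59952020, minus strand): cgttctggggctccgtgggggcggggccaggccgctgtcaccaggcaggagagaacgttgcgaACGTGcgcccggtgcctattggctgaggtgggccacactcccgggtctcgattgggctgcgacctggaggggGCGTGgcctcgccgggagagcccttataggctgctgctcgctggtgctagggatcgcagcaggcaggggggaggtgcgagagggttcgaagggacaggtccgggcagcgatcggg
Dlat (chr9:50659781-50660030, minus strand): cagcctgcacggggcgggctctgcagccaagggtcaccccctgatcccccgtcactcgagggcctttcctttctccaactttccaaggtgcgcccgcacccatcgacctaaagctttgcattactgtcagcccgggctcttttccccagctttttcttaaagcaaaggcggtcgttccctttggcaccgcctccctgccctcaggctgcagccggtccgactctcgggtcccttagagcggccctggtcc
Where a gene had several annotated starts, the window with the most matches is shown. Pfkfb3 held matches that begin 122, 53 and 52 bases before the start site, and Ldha 5 of them, at 145, 144, 48, 47 and 34 bases. The letters CACGTG read the same on both strands, so each such hexamer counts as a pair of overlapping ACGTG matches; Ldha holds 2 of these hexamers and Pfkfb3 and Pdk2 hold 1 each. The Dlat window held no match.

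At least 1 window held a match for 32 of the 36 measured members with an entry (88.9%), for 10 of the 11 that fell and for 2 of the 3 that rose and had an entry. The share was 41.5% over all 27025 genes of the table and 58.8% over the tested genes above the dim level. Several members are textbook HIF targets and were listed for that reason, and a match is a run of letters, not a site shown to be bound.

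The glucose transporters moved in opposite directions. Slc2a3 encodes GLUT3, a high-affinity transporter best known from neurons. Its level was 5.76 and 5.82 in KrasD12 A and B, against 4.57 and 4.50 in WT A and B. Both KrasD12 samples thus stood above the dim level and both WT samples below it. The difference was 1.26 ± 0.07 (adjusted p = 0.000439), or 0.85 after quantile normalization, and with a dim WT group its size is uncertain. Slc2a1 encodes GLUT1, the basal transporter of most cultured cells and a target of HIF. It stood at 8.29 and 8.27 in KrasD12 A and B, against 8.52 and 8.55 in WT A and B, a fall of 0.26 ± 0.07 (adjusted p = 0.0198).

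Of the 8 measured enzymes of the upper, energy-consuming steps of glycolysis, 3 fell and 0 rose, where 11.5% and 22.4% of all genes did. Hk2, the inducible hexokinase that traps glucose in the cell, stood at 7.27 and 7.23 in KrasD12 A and B, against 7.88 and 7.73 in WT A and B (-0.56 ± 0.08, adjusted p = 0.00316). Pfkp, the platelet-type phosphofructokinase, had 7.78 and 7.44 in KrasD12 A and B, against 8.21 and 8.12 in WT A and B. Its KrasD12 samples differed from each other by more than those of most members, and the difference of -0.56 ± 0.13 (adjusted p = 0.0130) became -0.39 without KrasD12 B and -0.73 without KrasD12 A. Tpi1, triosephosphate isomerase, fell to 10.16 and 10.20 in KrasD12 A and B, against 10.80 and 10.68 in WT A and B (-0.56 ± 0.08, adjusted p = 0.00260).

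The remaining phosphofructokinase subunits stayed within small differences that were not called, -0.04 for the liver type Pfkl and 0.04 for the muscle type Pfkm. The aldolases Aldoa and Aldoc differed by -0.18 ± 0.07 and 0.21 ± 0.14 and were not called either. Hk1, the constitutive hexokinase, differed by 0.06 ± 0.11. Its row had a level of 12.5 on average, while a second Hk1 row averaged 8.87 and differed by 0.05 ± 0.07 (adjusted p = 0.600). The brighter row carries an Hk1 label although its neighbours by row ID lie on chromosome 14 and Hk1 on chromosome 10, and 16 further rows that name Hk1 together with the ribosomal protein gene Rpl17 have means of 11.5 to 12.8. The level of 12.5 is therefore not a secure level of Hk1.

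Pfkfb3 showed the largest fall of the module. The PFKFB enzymes make and break down fructose 2,6-bisphosphate, the strongest allosteric activator of phosphofructokinase, and Pfkfb3 is the isoform with the highest kinase activity. It stood at 7.25 and 7.08 in KrasD12 A and B, against 8.45 and 8.38 in WT A and B. The gap between the groups was several times that within either group. The difference was -1.25 ± 0.09 (2.38-fold lower, adjusted p = 0.000630), and -1.45 after quantile normalization. Pfkfb4, also a HIF target, differed by 0.12 ± 0.08 (adjusted p = 0.249) and Pfkfb2 by 0.22 ± 0.08, which was called on the deposited values only (adjusted p = 0.0497).

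**Figure D2:**
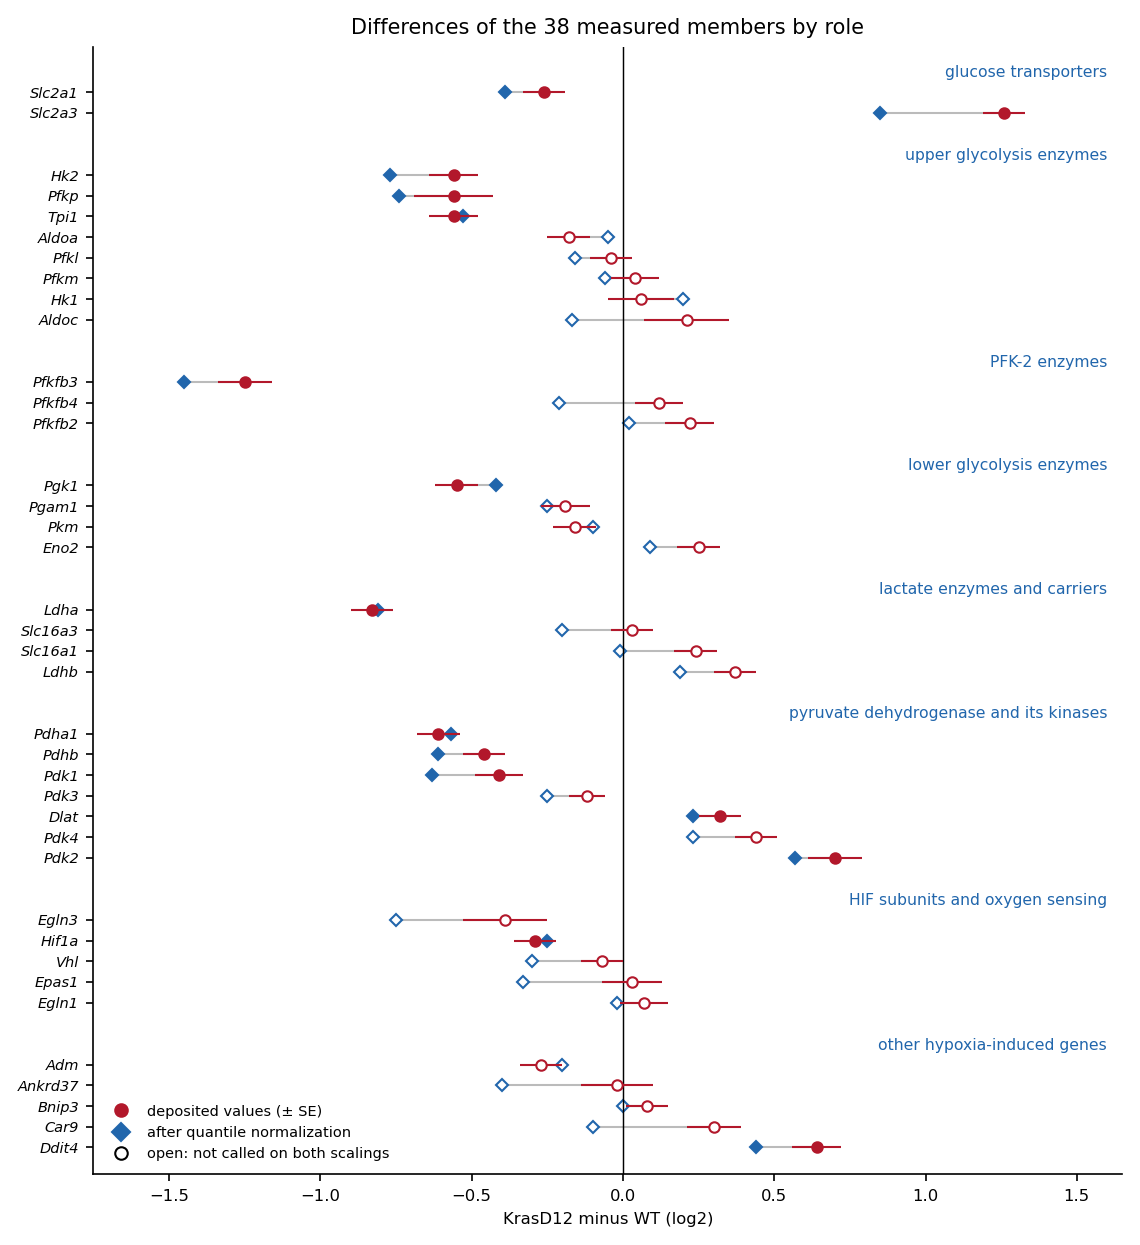
KrasD12 minus WT difference (log2) of the 38 measured members, ordered by role; red circles are deposited values with limma's SE, blue diamonds values after quantile normalization, and filled symbols mark members called in the same direction on both. Pfkfb3 lies farthest to the left at -1.25 and Slc2a3 farthest to the right at 1.26.

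In the lower, energy-yielding steps, 1 of 4 measured enzymes fell and 0 rose, where 11.5% and 22.4% of all genes did. Pgk1, phosphoglycerate kinase, had 11.02 and 11.11 in KrasD12 A and B, against 11.63 and 11.59 in WT A and B (-0.55 ± 0.07, adjusted p = 0.00241). Pgam1, phosphoglycerate mutase, differed by -0.19 ± 0.08 and was called only after quantile normalization (-0.25, adjusted p = 0.0470). The pyruvate kinase gene Pkm, with 10.85 in both KrasD12 samples against 10.97 and 11.05 in WT A and B, was not called (-0.16 ± 0.07, adjusted p = 0.0924). A second Pkm row differed by -0.24, but its neighbours by row ID lie on chromosome 5 and Pkm on chromosome 9. With its rows averaged, Pkm was called lower on the deposited values (-0.20, limma adjusted p = 0.0447). Eno2, the neuronal enolase, was higher on the deposited values only (0.25 ± 0.07, adjusted p = 0.0292), with 0.09 after quantile normalization.

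At the lactate branch, Ldha fell and the remaining 3 members were not called on both scalings. Ldha encodes the lactate dehydrogenase subunit that favours making lactate, and is a classical target of HIF and MYC. Its promoter window held 5 core matches, the most of the 6 shown, with each of its 2 CACGTG hexamers counted as a pair. The Pdha1 window held 3 matches that do not overlap. The Ldha level was 10.09 and 10.06 in KrasD12 A and B, against 10.91 and 10.90 in WT A and B. Replicates lay close together and the groups far apart (-0.83 ± 0.07, 1.78-fold lower, adjusted p = 0.000791; -0.81 after quantile normalization). The carriers that move lactate and pyruvate across the membrane, Slc16a1 (MCT1) and Slc16a3 (MCT4), differed by 0.24 ± 0.07 and 0.03 ± 0.07. Slc16a1 was called on the deposited values only (adjusted p = 0.0321) and stood at -0.01 after quantile normalization.

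For Ldhb, the subunit that favours turning lactate back to pyruvate, the direction depended on the row. The brighter row, which stands for the gene by the rule used here, had 8.20 and 8.15 in KrasD12 A and B, against 7.84 and 7.78 in WT A and B (0.37 ± 0.07, adjusted p = 0.00718). A second row had 7.37 and 7.40 in KrasD12 A and B, against 7.66 and 7.82 in WT A and B (-0.36 ± 0.08, adjusted p = 0.0139), and -0.56 after quantile normalization (adjusted p = 0.00263). In each row the groups did not overlap, in opposite directions. Neighbours of the brighter row lie on chromosome 19, those of the second on chromosome 6, where Ldhb is. Row IDs follow the genome on this array: 99.7% of genes with a single row lie on the chromosome of most of their 20 neighbours on each side. No direction is given for Ldhb.

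The same comparison of rows changed no call on both scalings among the other members with several rows. Besides Hk1 and Ldhb, the row that stands for Pgk1, Pgam1 and Bnip3 also has its neighbours on another chromosome than the gene. The Pgk1 row on chromosome X differed by -0.48 ± 0.07 (adjusted p = 0.00334), so that Pgk1 was called lower there too. The Pgam1 row on chromosome 19 differed by -0.02 ± 0.09 and that of Bnip3 on chromosome 7 by 0.03 ± 0.08, neither called on either scaling. These gene families have processed copies in the genome, and rows with equal values in all 4 samples (a pair for Pgk1 and a pair for Pgam1) share their signal and are not separate measurements. With the row on the gene's own chromosome throughout, an alternative added after seeing the data, 12 members fell and 4 rose, Ldhb being the added fall.

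**Figure D3:**
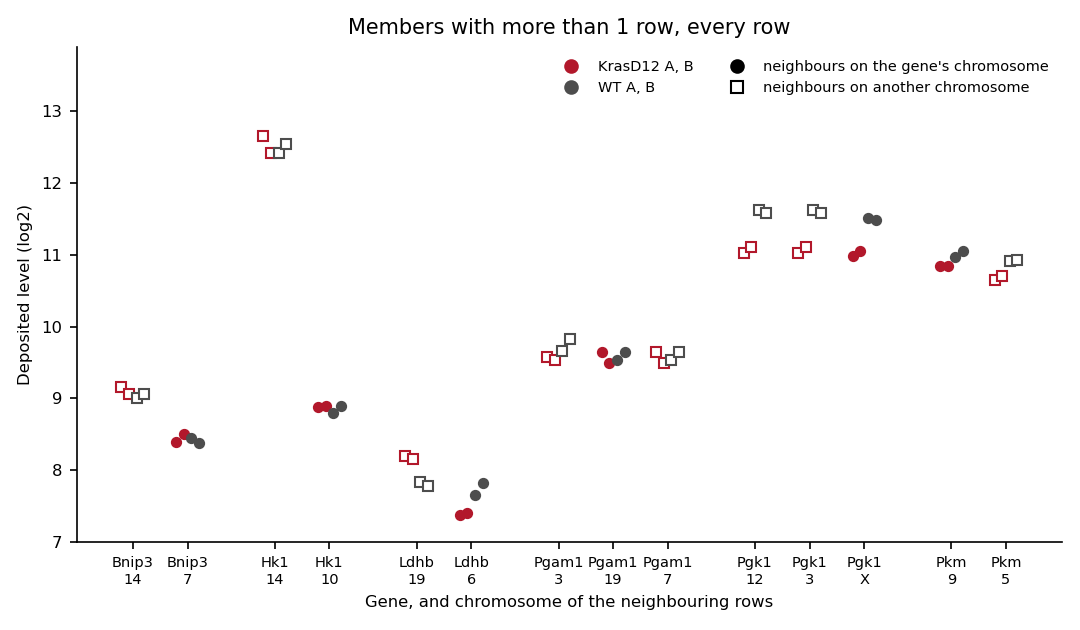
Deposited log2 level in every sample of each row of the 6 members with more than 1 row, with the chromosome of the neighbouring rows under the gene; filled circles are rows whose neighbours lie on the gene's own chromosome, open squares rows whose neighbours lie elsewhere, and within a row the order is KrasD12 A and B (red), then WT A and B (grey). For Ldhb the red points lie above the grey in one row and below them in the other.

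Members of the pyruvate dehydrogenase system went both ways, with 3 falls and 2 rises among 7 (42.9% and 28.6%, against 11.5% and 22.4% of all genes). Pdha1 and Pdhb encode the alpha and beta subunits of the E1 component, which decarboxylates pyruvate, and both fell. Pdha1 had 10.25 and 10.18 in KrasD12 A and B, against 10.82 in both WT samples (-0.61 ± 0.07, adjusted p = 0.00163). Pdhb had 7.96 and 8.00 in KrasD12 A and B, against 8.45 and 8.43 in WT A and B (-0.46 ± 0.07, adjusted p = 0.00310). Dlat, the E2 acetyltransferase of the same complex, lay on the other side, with 9.09 and 9.04 in KrasD12 A and B, against 8.77 and 8.72 in WT A and B. Its rise of 0.32 ± 0.07 (adjusted p = 0.0106) was the weakest of the 4: with the replicate letter as a block the quantile value of 0.23 was not called (adjusted p = 0.0521), and with columns centred on their medians Dlat stood at -0.03.

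The 4 kinases that phosphorylate and inhibit E1 were divided too. Pdk1, the HIF-induced kinase, fell to 7.31 and 7.17 in KrasD12 A and B, against 7.65 in both WT samples (-0.41 ± 0.08, adjusted p = 0.00723). Pdk2, the most widely expressed isoform, rose to 8.61 and 8.80 in KrasD12 A and B, against 7.96 and 8.05 in WT A and B (0.70 ± 0.09, 1.62-fold, adjusted p = 0.00239). Pdk4, which fasting and glucocorticoids induce, was higher on the deposited values (0.44 ± 0.07, adjusted p = 0.00495) and just missed the threshold after quantile normalization (0.23, adjusted p = 0.0522). Pdk3 differed by -0.12 ± 0.06 and was called lower after quantile normalization only (-0.25, adjusted p = 0.0277).

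Among the 5 genes of HIF and oxygen sensing, 1 fell and 0 rose, where 11.5% and 22.4% of all genes did. Hif1a, the oxygen-regulated subunit of HIF-1, had 10.21 and 10.13 in KrasD12 A and B, against 10.47 and 10.44 in WT A and B (-0.29 ± 0.07, adjusted p = 0.0168). HIF-1 is set mainly at the level of its protein, which arrays do not measure. Epas1 (HIF-2 alpha), Vhl and Egln3, a prolyl hydroxylase that HIF itself induces, were called lower after quantile normalization only, at -0.33, -0.30 and -0.75, against 0.03, -0.07 and -0.39 on the deposited values. Egln3 had 6.00 and 5.69 in KrasD12 A and B, against 6.10 and 6.37 in WT A and B, so that its samples spread more within a group than those of most members. Egln1, the main prolyl hydroxylase, differed by 0.07 ± 0.08 and was not called on either scaling.

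Of 5 further hypoxia-induced genes, 1 rose and 0 fell, where 22.4% and 11.5% of all genes did. Ddit4 (REDD1), an inhibitor of mTORC1 induced by hypoxia and by several other stresses, had 7.95 and 8.11 in KrasD12 A and B, against 7.40 and 7.38 in WT A and B (0.64 ± 0.08, 1.56-fold, adjusted p = 0.00223). Adm, the vasodilator peptide adrenomedullin, was lower on the deposited values only (-0.27 ± 0.07, adjusted p = 0.0238; -0.20 after quantile normalization). Car9, a carbonic anhydrase that in many cells is among the most HIF-dependent genes, stood at 5.29 and 5.09 in KrasD12 A and B, against 4.94 and 4.85 in WT A and B. These levels lie around the dim level in all 4 samples. Car9 was higher on the deposited values only (0.30 ± 0.09, adjusted p = 0.0382) and stood at -0.10 after quantile normalization. Ankrd37 (-0.02, or -0.40 and called lower after quantile normalization) was also near it, with 5.46 and 5.66 in KrasD12 A and B, against 5.45 and 5.71 in WT A and B. Bnip3, a mitophagy receptor, differed by 0.08 ± 0.07 and was not called.

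**Figure D4:**
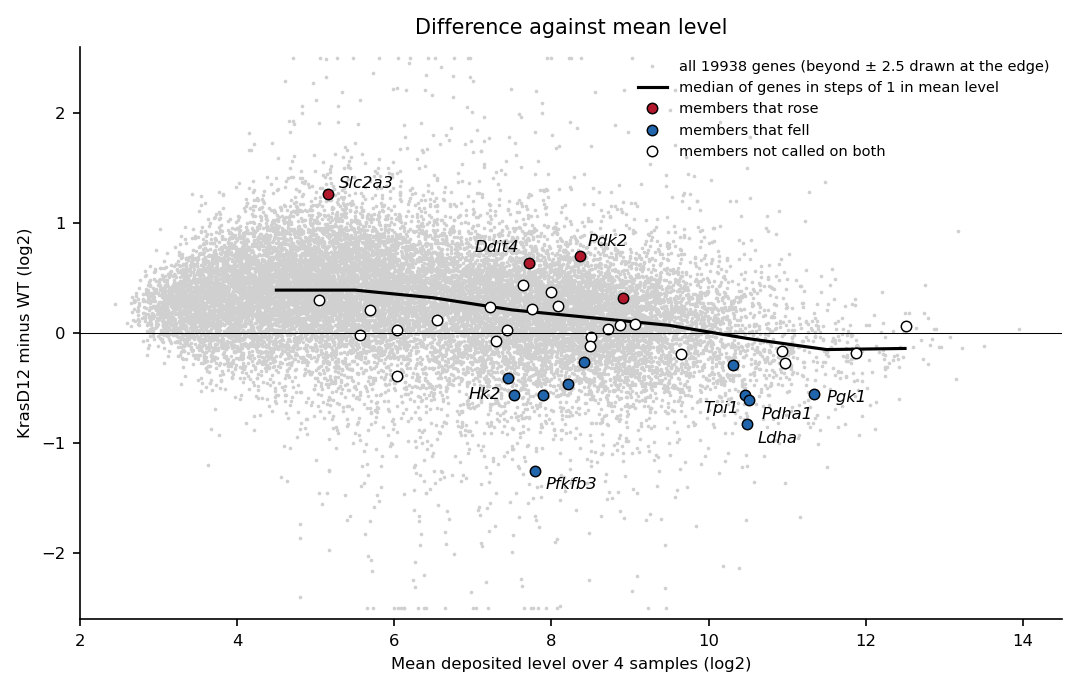
KrasD12 minus WT difference (log2) against mean deposited level over the 4 samples for all 19938 genes (grey), with the median of genes in steps of 1 in mean level (black line) and the members marked. Members that fell (blue) lie below the black line at both moderate and high levels, and the line itself starts at 0.39 for the dimmest steps drawn and ends at -0.14 for the brightest.

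Members were also set against the median difference of genes within 0.5 of their own mean. Relative to that median Pfkfb3 stood at -1.44, Ldha at -0.79, Hk2 at -0.76, Pfkp at -0.74, Pdhb at -0.63 and Pdk1 at -0.62. Pdha1 stood at -0.54, Tpi1 at -0.52, Pgk1 and Slc2a1 at -0.41, and Hif1a at -0.28. On the upper side Slc2a3 stood at 0.85, Pdk2 at 0.55, Ddit4 at 0.45 and Dlat at 0.23. The median over all 38 members was -0.18 by this measure, against 0.00 over all genes.

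Members of a family were also compared in 12 pairs. The change of one paralog minus that of another is taken within each array, so that a shift equal for all genes of an array drops out. A shift that depends on the level does not drop out where the paralogs differ in level. It is given as a description, and no test of it was run. Slc2a3 changed by 1.51 more than Slc2a1, Pfkfb3 by -1.37 relative to Pfkfb4, and Pdk1 by -1.11 relative to Pdk2, with SDs between arrays of a group of 0.06, 0.09 and 0.17. After quantile normalization these values were 1.24, -1.24 and -1.20. Ldha changed by -1.20 relative to the brighter Ldhb row and by -0.48 relative to the row on the gene's own chromosome. The values for Aldoa against Aldoc and for Hif1a against Epas1 turned sign after quantile normalization, at 0.13 and 0.08, against -0.38 and -0.31 on the deposited values.

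Other genes of glucose metabolism, from a list that holds no member, held 9 of 44 measured that rose (20.5%) and 9 that fell (20.5%), against 22.4% and 11.5% of all genes. Txnip, an arrestin-like protein that restrains glucose uptake, rose by 2.06 ± 0.07, more than any member. Slc16a4, a carrier of the monocarboxylate family, rose by 1.58 ± 0.10. Pck1, the cytosolic enzyme that starts gluconeogenesis from oxaloacetate, rose by 1.17 ± 0.13 with a dim WT mean of 4.78. Eno3, the muscle-type enolase, stood at -1.28 ± 0.08, a fall as large as that of Pfkfb3. In the pentose phosphate branch, which draws glucose 6-phosphate away from glycolysis, 4 of 10 fell (40.0%) and 2 rose (20.0%): Pgd (-0.46), Rpe (-0.38) and Prps1 (-0.37) were lower and H6pd (0.35) higher.

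In a further list of hypoxia response genes, 11 of 44 measured rose (25.0%) and 10 fell (22.7%), against 22.4% and 11.5% of all genes. The transferrin receptor gene Tfrc (-1.35 ± 0.09) and the glycogen-branching enzyme Gbe1 (-0.91 ± 0.07) fell. Plod1, a collagen lysyl hydroxylase, and Stc1, a secreted glycoprotein, rose by 1.29 ± 0.07 and 1.17 ± 0.08. The median differences of the 3 lists were 0.31 for glucose metabolism, -0.12 for the pentose phosphate branch and 0.11 for hypoxia response on the deposited values, and -0.02, -0.37 and -0.07 after quantile normalization, beside 0.26 and 0.00 for all genes.

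Markers of the labelled cell type were measured in all samples: 10 of 10 fibroblast markers lay above the dim level in each group, and the summed level of the list on the log2 scale was 15.22 and 15.24 in KrasD12 A and B, against 15.33 and 15.32 in WT A and B. Pdgfrb, Thy1 and Col1a1 fell and Fn1 and Pdgfra rose. The summed levels of epithelial markers were 8.67 and 8.75 in KrasD12 A and B, against 8.27 and 8.25 in WT A and B; of 9, only Sftpc rose, with a mean of 5.27 in KrasD12 and 4.35 in WT. Those of endothelial markers were 8.20 and 8.23 in KrasD12, against 7.93 and 7.81 in WT, with 0 of 7 called on both scalings. Those of immune markers were 8.14 and 8.15 in KrasD12, against 7.74 in both WT samples, with rises of Cd79a (1.02) and Adgre1 (0.63), both with dim means in both groups, and a fall of Csf1r (-0.43) among 7. Those of muscle and mesothelial markers were 8.66 and 8.72 in KrasD12, against 8.44 and 8.63 in WT, with 0 of 6 called on both. All these sums are of deposited values, whose shift between the groups depends on the level. Median differences of the fibroblast, epithelial, endothelial, immune, and muscle and mesothelial lists were -0.18, 0.47, 0.31, 0.63 and 0.46 as deposited. After quantile normalization they were -0.02, 0.09, -0.10, 0.26 and 0.08. The part of these cell types in the members' differences was not tested. In bulk RNA fewer cells of a type and less RNA per cell cannot be told apart.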

How the data were processed

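Per the labels, biotin-labelled total RNA of 4 samples was hybridised to Affymetrix mouse gene arrays. The authors deposited 1 log2 value per row and sample, from 2.28 to 14.95; the log2 unit is read from the values. Transcriptome Analysis Console is the software listed in the submitters' processing notes; for its version, background correction and normalization, the sources used here give nothing.

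Of 28944 rows, 21789 carry 1 symbol in the platform annotation, 1621 several and 5534 none; the 21789 stand for 19938 genes, each by its row with the highest mean. The test was limma's (version 3.58.1, R 4.3.3; lmFit, then eBayes, with group as the only term, two-sided, Benjamini-Hochberg over all genes), tested on simulated data first. The simulated arrays had few changed genes and no shift between the groups, so that trial does not cover the shift seen in these data. The fit has 2 residual degrees of freedom, and the number of arrays limits the precision. Quantile normalization used all rows. Tables and plots used the R package data.table (1.17.8), Python 3.11.15, pandas 2.3.3 and matplotlib 3.10.9. The members and lists were chosen with earlier results of these data known. Every member is accounted for; of each other list up to 4 genes called on both scalings with the largest differences are named (all called ones for the markers of fibroblasts). Promoters were read from a RefSeq table. Alternatives were 3 normalizations, leaving dim genes out, a trended and a robust eBayes, averaging the rows of each gene, the replicate letter as a block and each array left out.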

Additional observations from a re-analysis of the deposited data

How the results depend on the processing

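Counts of members called higher and lower on the deposited values were 10 and 12. They were 4 and 17 after quantile normalization, 3 and 25 with columns centred on their medians, and 4 and 16 after cyclic loess. Over all genes, calls in either direction numbered 12372 as deposited, and 9346, 10231 and 9466 under these 3 normalizations. For centring and cyclic loess the all-gene calls were not split by direction. Their counts are therefore not read as a result about the members. Leaving out an array in turn gave 0 to 4 higher, 0 to 7 lower, 0 to 3 that rose on both scalings, 0 to 6 that fell on both, and 0 to 5783 of all genes, against 12372; the 0 came without WT A or WT B, where the smallest adjusted p was 0.0552 and 0.0530. Under the other alternatives run, 11 to 14 members fell and 3 to 6 rose. Among members called on the deposited values or under the alternative, differences with the columns centred turned to -0.31 for Pfkm, -0.13 for Pfkfb2, -0.10 for Eno2, -0.03 for Dlat, -0.11 for Slc16a1, -0.32 for Slc16a3, -0.32 for Epas1, -0.28 for Egln1, -0.27 for Bnip3 and -0.05 for Car9. After quantile normalization and cyclic loess they turned to -0.01 and -0.02 for Slc16a1, -0.33 and -0.34 for Epas1, and -0.10 and -0.11 for Car9, and the paralog contrasts to 0.13 and 0.16 for Aldoa against Aldoc and to 0.08 and 0.08 for Hif1a against Epas1. Members called under neither scaling also turned: with centred columns Hk1 to -0.29, Pfkfb4 to -0.23 and Aldoc to -0.14, and after quantile normalization and cyclic loess Pfkfb4 to -0.21 and -0.21, Aldoc to -0.17 and -0.19, Slc16a3 to -0.20 and -0.21, Pfkm to -0.06 and -0.07, and Egln1 to -0.02 and -0.03. Ldhb turned to -0.36 on the row of its own chromosome. Centring moves all genes by the same amount, while the deposited shift depends on the level; beyond that the cause was not tested. With the replicate letter as a block, 11 members fell and 3 rose, Dlat losing its call; Pfkfb2, Eno2, Slc16a1 and Adm, called on the deposited values only, also lost theirs, and no other call of a member on the deposited values was lost (10260 of all genes were called). Deviations of same-letter samples correlated at r = 0.013 across genes, and the samples share only a letter. Dim levels limit Slc2a3 and Car9.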

Other observations

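Among the genes of glucose handling, Arrdc4 rose as Txnip did, by 0.74 ± 0.10 (limma adjusted p = 0.00241). The name was picked after its value was seen. Both encode arrestin-like proteins known as transcriptional targets of the glucose-sensing factor MondoA, and their means were 7.99 and 10.8 in KrasD12, against 7.26 and 8.75 in WT.

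Collagen-modifying enzymes of the hypoxia response list did not share a direction, and these too were picked after their values were seen. The prolyl hydroxylase subunits P4ha1 and P4ha2 fell by 0.52 ± 0.07 and 0.90 ± 0.06, and the lysyl hydroxylase Plod2 fell by 0.49 ± 0.07, while Plod1 rose by 1.29.

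Of the glucose transporter genes that are no members, Slc2a8 rose by 0.93 ± 0.09, and Slc2a10, Slc2a6 and Slc2a9 stood at -0.89, -0.82 and -0.54. These 4 were picked after their values were seen, because they were called on both scalings. Slc2a4, Slc2a5, Slc2a12 and Slc2a13 were called higher on the deposited values only.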
